A study of Mus musculus with 9 samples.

Results

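The genes described here encode respiratory complexes II to V of the mitochondrion, and they were taken by symbol: Sdha to Sdhd, all Uqcr genes, Cyc1, all numbered Cox genes, all Atp5 genes and the mitochondrial genes of cytochrome b, cytochrome c oxidase and ATP synthase. Of 72 annotated mouse symbols that match this rule, 45 had a row among the 9872 genes of the table of BA and AV mice, and 50 had a row among the 11820 genes of the table of BA and AP mice. All 45 were in both tables, and Cox5b, Cox7a2, Uqcr11, Uqcrq and mt-Co2 were in the second alone. The other 22 symbols, 7 of them pseudogenes by name, had no row in the tables used here, among them mt-Co1, mt-Cytb, mt-Atp6, mt-Atp8, Cox8a and the tissue-restricted isoforms Cox4i2, Cox6a2, Cox6b2, Cox7a1 and Cox8b.

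The mice were transgenic mice of the Thy1-YFP line B6.Cg-Tg(Thy1-YFP)HJrs/J, in which the Thy1 promoter drives a yellow fluorescent protein in pyramidal neurons of several forebrain regions, the amygdala among them, and in some other neurons. From mice given a choice between a dark arm and a lit arm with palatable food, the study took 3 with balancing (BA), 3 with avoiding (AV) and 3 with approaching (AP) behaviour, and mice of a group were never siblings. All groups carried the same transgene and were handled alike: YFP-positive cells were sorted from amygdala punches of each mouse long after the task, and each mouse gave 1 library of total RNA, so the samples compared are separate animals. AV replicate 2 was left out by the authors as an outlier and is not analysed here, so 2 AV mice stand against 3 BA mice, and 3 AP mice against the same 3 BA mice. Values are the authors' normalized signal per gene and mouse, and the tables were normalized separately, so each group was compared with BA within its own table. A log2 fold change is the difference of mean log2(value + 1), AV or AP minus BA, with its standard error (SE) from limma, and a gene is called when its Benjamini-Hochberg adjusted p from limma over all listed genes is under 0.05.

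Mitochondria make most of a neuron's ATP. Complex II (succinate dehydrogenase) takes electrons from succinate and links the citric acid cycle to the chain, complex III (the cytochrome bc1 complex) passes them from ubiquinol to cytochrome c, and complex IV (cytochrome c oxidase) passes them to oxygen. Complexes III and IV pump protons, and complex V (ATP synthase) makes ATP as the protons flow back. Mitochondrial DNA encodes some core subunits of complexes III, IV and V and none of complex II, and the nucleus encodes all other subunits and the assembly factors, which insert haem and copper, join subunits and are not part of the finished enzyme.

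The labels name pyramidal neurons, and the marker genes go against a pure sample. Of 7 pyramidal neuron markers, Camk2a and Ddn had a row, and of 8 general neuron markers, Eno2 did, whereas all 6 oligodendrocyte markers had one. A missing row does not by itself show low expression. For example, mt-Co2 has no row beside AV mice, yet stood at 2152, 3554 and 4066 in BA mice of the other table. Camk2a, a kinase of excitatory neurons, had values of 55.3, 77.3 and 68.4 in BA and 1656 and 2965 in AV mice. Oligodendrocyte markers summed to 1.53 to 2.20% of the signal in BA and to 0.998 and 1.18% in AV mice, and 4 of 6 were called lower. Astrocyte markers summed to 0.235 to 0.391% in BA and to 0.894 and 1.65% in AV mice, a sum made up mostly of Slc1a2, and 3 of the 6 with a row were called higher, with log2 fold changes from -0.063 to 2.09. All 3 microglial markers with a row were called higher, Cx3cr1 by 1.25, C1qa by 1.65 and Tmem119 by 2.36, and they summed to 0.00597 to 0.00934% in BA and to 0.0221 and 0.0273% in AV mice. The 3 endothelial markers with a row were below all BA mice in both AV mice, and 1 was called, Kdr (-2.86). Of all genes compared between BA and AV mice, 29.7% were called, 13.6% higher and 16.2% lower. Both AV mice were below all BA mice in 31.3% of all genes. AP replicate 1 stood apart from the other AP mice in Camk2a and the astrocyte markers. Camk2a was 77.0 there and 843 and 1401 in the others, against 64.9 to 98.3 in BA mice. The median of the astrocyte markers was 0.43 below the BA mean there on the log2 scale, against 1.39 and 0.63 above it in the others. Eno2 was at 28.2, 50.9 and 180 in AP replicates 1, 2 and 3, against 35.1 to 50.2 in BA mice. The part of these differences in the results below was not tested, and in such pooled cells fewer cells of a type and less RNA per cell cannot be told apart.

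In the BA mice of the BA vs AV table complex IV had both the most and some of the least abundant transcripts of the set. Per kb of annotated exon, mt-Co3 stood at a mean value of 14744 in BA mice of this table, and the next gene, Cox6a1, at 291. In the BA vs AP table, which holds the same BA mice, mt-Co2 came between them. The length counts all annotated exons of a gene, which can exceed the transcript made. For Cox17 it was 5.77 kb, the whole span of the gene, and for Cox14 0.723 kb. The order of the genes per kb thus depends in part on the annotation. The median gene stood at 73.8 per kb among the 34 subunits and at 20.6 per kb among the 10 assembly factors. Cox14, a small inner membrane factor that binds newly made COX1, was the exception among the latter at 229 per kb, below only mt-Co3 and Cox6a1 among the members of this table. The lowest was Cox18, an insertase for COX2, at 10.1 per kb. In the BA vs AP table Atp5a1 and Cox4i1 stood above Cox14 as well, and Atp5g1 was the lowest. The signal of every member lay far above the smallest values of the tables, with a lowest single value of 15.8.

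The question of the comparison was how BA mice differ from mice at either end of the behavioural range. Between BA and AV mice, 23 of 34 subunits rose in AV mice and 11 did not pass the test. All 34 subunits of complexes II to V had a positive log2 fold change, and in 32 both AV mice lay above all 3 BA mice. An unadjusted p under 0.05 was reached by 30 of the 45 members, all higher, beside 43.2% of all genes, 20.2% higher and 23.0% lower. Over all 45 members 25 were called, all higher, whereas 29.7% of all genes were called, 13.6% higher and 16.2% lower. In 37 members the groups did not overlap with AV higher, against 27.7% of all genes, and in 1 with AV lower, against 31.3% and 58.9% in either direction. The median log2 fold change was 0.98 over the members and 1.11 over the subunits, beside -0.03 over all genes. The count of called members fell to 15 without BA replicate 1 and to 16 without BA replicate 3.

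**Figure D1:**
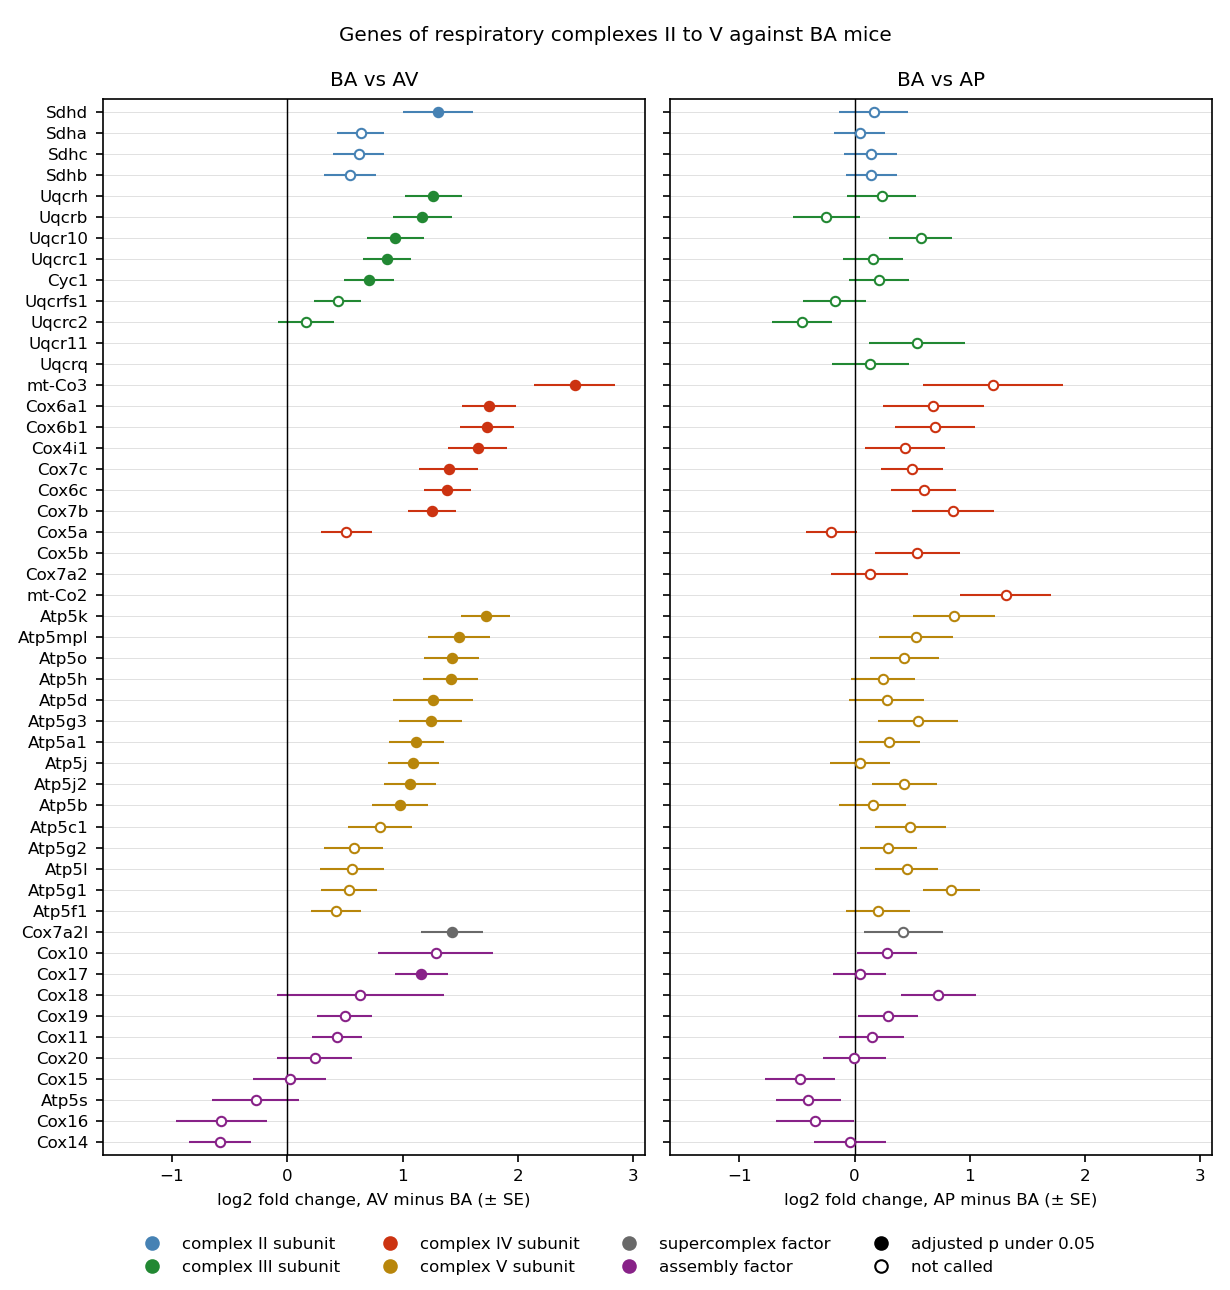
Log2 fold changes of AV minus BA (left) and AP minus BA (right) for each listed member, with the standard error from limma as bars. Colours give the complex or role and filled points an adjusted p under 0.05. All 34 subunits lie to the right of 0 on the left and none is called on the right.

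The complexes differed in how far they were higher. Complex IV subunits had a median log2 fold change of 1.52, from 0.51 to 2.49, with 7 of 8 called. For complex V subunits it was 1.09, from 0.42 to 1.72, with 10 of 15 called. Complex III had a median of 0.86, from 0.16 to 1.27, with 5 of 7 called, and complex II a median of 0.63, from 0.54 to 1.31, with 1 of 4 called. The order was the same in both AV mice, in which the medians were 1.56 and 1.44 for complex IV, 0.98 and 1.10 for complex V, 0.81 and 0.92 for complex III and 0.59 and 0.73 for complex II. These differences between complexes were not tested, since genes of 1 mouse are not replicates. Assembly factors had a median of 0.33, with 1 of 10 called, beside 29.7% of all genes.

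**Figure D2:**
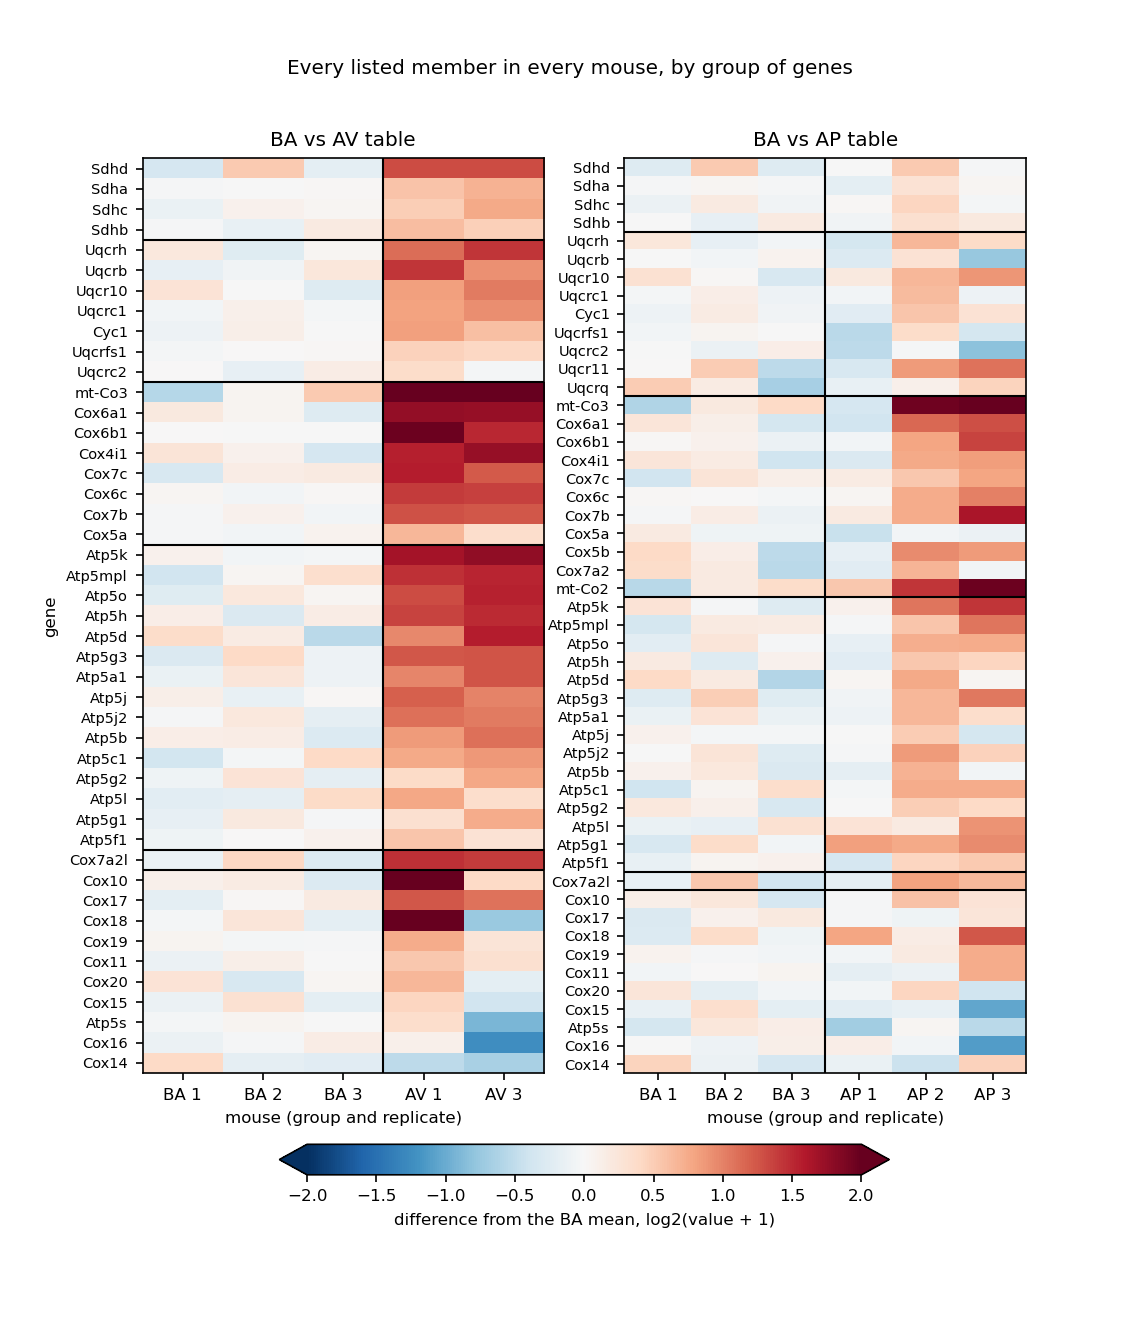
Difference of log2(value + 1) from the mean of the 3 BA mice for each member (rows, with lines between complexes II, III, IV and V, the supercomplex factor Cox7a2l and the assembly factors) in each mouse (columns), on a colour scale from -2 to 2. In the left panel both AV columns are red over nearly all subunits, and AV replicate 3 turns blue among the assembly factors.

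To show what stands before the start sites of genes that moved together, the windows of the nuclear subunit with the largest rise of each complex and of Cox14, the assembly factor with the lowest log2 fold change, are given, 5′ to 3′ on the strand of the gene, from the RefSeq table of GRCm38.p6. Each ends at the RefSeq start site, except that of Atp5k, which was shortened so that no window reaches more than 25 bases into the GENCODE model of its gene. Capitals mark an exact match of either strand to 1 of 4 letter strings known from regulators of respiratory genes: CGCATGCG for NRF1, CCGGAAGT for GABP, AAGATGGCG for YY1 and TCAAGGTCA for the oestrogen-related receptors.
Sdhd, chr9:50603850-50604099, minus strand: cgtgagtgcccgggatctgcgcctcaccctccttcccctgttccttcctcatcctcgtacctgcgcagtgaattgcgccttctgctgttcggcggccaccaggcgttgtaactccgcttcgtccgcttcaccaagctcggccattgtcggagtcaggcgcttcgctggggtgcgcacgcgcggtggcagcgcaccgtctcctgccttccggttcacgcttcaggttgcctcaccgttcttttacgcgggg
Uqcrh, chr4:116075071-116075320, minus strand: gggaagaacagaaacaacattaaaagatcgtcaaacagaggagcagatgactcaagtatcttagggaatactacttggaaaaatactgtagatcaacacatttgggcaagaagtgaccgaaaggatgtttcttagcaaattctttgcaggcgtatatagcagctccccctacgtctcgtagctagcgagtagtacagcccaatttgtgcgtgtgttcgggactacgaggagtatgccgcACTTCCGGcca
Cox6a1, chr5:115348959-115349208, minus strand: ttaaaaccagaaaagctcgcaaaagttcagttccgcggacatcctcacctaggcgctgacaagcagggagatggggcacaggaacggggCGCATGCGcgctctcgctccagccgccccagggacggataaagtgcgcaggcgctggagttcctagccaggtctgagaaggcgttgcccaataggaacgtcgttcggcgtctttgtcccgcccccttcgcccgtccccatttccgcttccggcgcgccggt
Atp5k, chr5:108434424-108434649, minus strand: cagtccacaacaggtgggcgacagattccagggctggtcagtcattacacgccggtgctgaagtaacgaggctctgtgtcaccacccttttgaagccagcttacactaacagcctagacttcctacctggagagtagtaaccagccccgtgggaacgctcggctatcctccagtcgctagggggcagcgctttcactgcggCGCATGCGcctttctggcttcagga
Cox14, chr15:99725368-99725617, plus strand: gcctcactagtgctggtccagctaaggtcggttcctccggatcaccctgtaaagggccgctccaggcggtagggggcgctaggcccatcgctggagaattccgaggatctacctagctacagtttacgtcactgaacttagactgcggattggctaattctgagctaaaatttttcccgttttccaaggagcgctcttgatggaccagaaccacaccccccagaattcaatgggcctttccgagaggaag
The windows of Cox6a1 and Atp5k hold the NRF1 letters and that of Uqcrh the GABP letters, and no motifs overlapped in these windows. Among the 250 bases before all 27025 genes of the table, 1.75% hold the NRF1, 3.23% the GABP, 0.710% the YY1 and 0.422% the receptor letters. Whether the members hold these letters more often than other genes was not tested. A window was matched for 37 of the 48 nuclear members. Of these, Atp5g2, Atp5j and Atp5l also hold the NRF1 letters, Cox10, Cox16, Atp5h and Uqcr11 the GABP letters, Atp5j the YY1 letters and Atp5g3 the receptor letters. The strings were chosen with the members' values known, and those of NRF1 and YY1 were shortened at their ends after matches to longer forms had been seen. The shorter forms match more genes of the table, and the NRF1 matches of Atp5j and Atp5l were found with the shorter form alone. A match of letters is a description of the sequence and not a measured binding site.

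Complex II, which carries no mitochondrially encoded subunit, had the smallest median. Sdhd (chromosome 9, 50596357 to 50603812), an anchor of the enzyme in the membrane, had values of 43.1, 78.8 and 47.4 in BA and 136 and 136 in AV mice. It was the only subunit of this complex that was called (log2 fold change 1.31, SE 0.30, limma adjusted p = 0.0203), and the call was lost without BA replicate 1 (adjusted p = 0.0710) or BA replicate 3 (adjusted p = 0.0708). Sdha, the flavoprotein that oxidises succinate, was at 574, 578 and 592 in BA and at 863 and 946 in AV mice. Its groups did not overlap, and the difference of 0.64 (SE 0.21) missed the threshold (adjusted p = 0.0577). The iron-sulfur subunit Sdhb stood at 133, 121 and 153 against 207 and 188 (log2 fold change 0.54, adjusted p = 0.107). For Sdhc, the second anchor, the values were 113, 131 and 127 against 174 and 209 (0.62, adjusted p = 0.0741).

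In complex III the largest rise was that of Uqcrh (chromosome 4, 116066965 to 116075071), the hinge protein at the cytochrome c docking site. Its values were 197, 144 and 176 in BA and 371 and 461 in AV mice (log2 fold change 1.27, SE 0.24, adjusted p = 0.0109). Uqcrb, Uqcr10 and the core protein gene Uqcrc1 rose as well, by 1.17, 0.94 and 0.86. Cyc1, the haem-bearing cytochrome c1, rose from 63.9, 74.7 and 68.0 to 122 and 105, with a log2 fold change of 0.71 (SE 0.22) and an adjusted p of 0.0487. This call was lost without any 1 of the BA mice or without AV replicate 1 (adjusted p between 0.103 and 0.137), with median centring (0.0738) and with a variance prior that follows the mean (0.0863). Uqcrfs1, the Rieske iron-sulfur protein, was at 175, 180 and 183 in BA and at 247 and 239 in AV mice, which did not overlap and were not called (0.44, adjusted p = 0.150). The second core protein gene, Uqcrc2, had the smallest difference of all subunits and overlapping groups, with 269, 240 and 299 in BA and 346 and 261 in AV mice (0.16, adjusted p = 0.637).

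Complex IV held the largest change of the set. The mitochondrial gene mt-Co3 (mitochondrial chromosome, 8607 to 9390), which encodes a core subunit of the oxidase, had values of 7443, 11423 and 15811 in BA and 70958 and 54505 in AV mice. It ranked 32, 18 and 6 among all genes of the BA mice and 1 in both AV mice, where it took 2.17 and 1.58% of the whole signal, against 0.198 to 0.417% in BA mice. The log2 fold change was 2.49 (SE 0.35, adjusted p = 0.00460). Since it was the only mitochondrially encoded member with a row in this table, the mitochondrial genome is represented here by 1 gene.

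Of the 7 nuclear subunits of complex IV, 6 rose, by 1.26 to 1.75. Cox6a1 (chromosome 5, 115345642 to 115348981), the broadly expressed form of subunit VIa, was at 233, 210 and 170 in BA and at 687 and 677 in AV mice (1.75, SE 0.23, adjusted p = 0.00409). Cox6b1, which faces the intermembrane space, was nearly constant among BA mice at 61.6, 60.8 and 60.8, and stood at 241 and 175 in AV mice (1.73, SE 0.23, adjusted p = 0.00411). Cox4i1, the common form of the largest nuclear subunit, was at 353, 315 and 234 against 874 and 993 (1.65, SE 0.26, adjusted p = 0.00588). In each of these the lower AV mouse was well above the highest BA mouse. The small membrane subunits Cox7c, Cox6c and Cox7b rose by 1.40, 1.39 and 1.26, whereas Cox5a, a matrix-side subunit, did not pass the test (0.51, adjusted p = 0.122). Cox7a2l, which helps complexes III and IV join into supercomplexes and is a relative of the subunit VIIa genes, had 93.3, 137 and 84.9 in BA and 283 and 274 in AV mice and was called (1.43, SE 0.27, adjusted p = 0.0104).

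**Figure D3:**
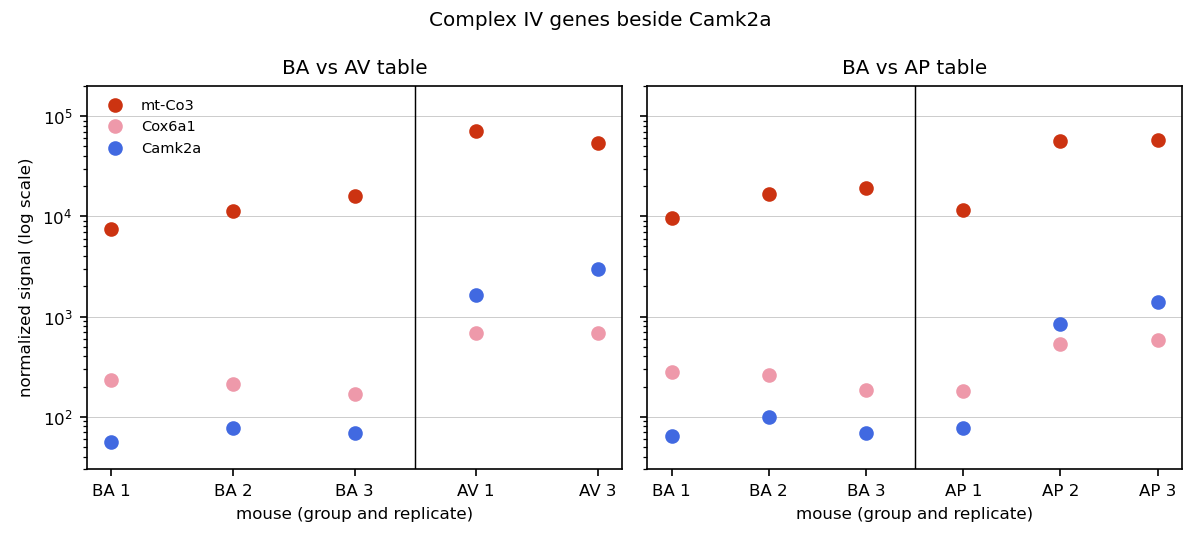
Normalized signal on a log scale of mt-Co3 and Cox6a1 in each mouse of both tables, beside Camk2a, a gene of excitatory neurons. mt-Co3 and Cox6a1 are high in the mice with high Camk2a, both AV mice and AP replicates 2 and 3.

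Complex V consists of the catalytic F1 head, the membrane rotor with its ring of c subunits, and stalks that join them. Both main catalytic genes rose, although neither call held without BA replicate 1 or 3 (adjusted p between 0.0558 and 0.0789), and that of Atp5b was also lost without BA replicate 2 (0.0679) or AV replicate 3 (0.0542). Atp5b, the beta subunit that makes ATP, had values of 881, 884 and 660 in BA and 1447 and 1721 in AV mice (log2 fold change 0.98, SE 0.24, adjusted p = 0.0253). Atp5a1, the alpha subunit, had 571, 734 and 579 in BA and 1232 and 1496 in AV mice (1.12, SE 0.24, adjusted p = 0.0147). The gamma subunit gene Atp5c1, the shaft that turns inside the head, did not pass the test (0.81, adjusted p = 0.0676).

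The largest rise of complex V was that of Atp5k (chromosome 5, 108433244 to 108434448), the small e subunit at which 2 synthases meet. Its values lay close together within each group, at 42.8, 38.6 and 39.3 in BA and at 130 and 140 in AV mice (1.72, SE 0.21, adjusted p = 0.00353). Atp5mpl, Atp5o, Atp5h and Atp5d rose by 1.49, 1.43, 1.42 and 1.26. The exons of Atp5o share 243 bases with a second annotated model of the same name, so its value depends on how reads were divided. At the low end were Atp5l, Atp5g1 and the stalk subunit Atp5f1, at 0.56, 0.54 and 0.42, of which none was called.

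The c subunit of the ring is encoded by 3 genes, Atp5g1, Atp5g2 and Atp5g3, whose mature protein is the same. Only Atp5g3 was called between BA and AV mice, with values of 76.8, 125 and 88.1 in BA and 224 and 227 in AV mice (1.24, SE 0.27, adjusted p = 0.0160, and 0.0581 and 0.0586 without BA replicate 1 and 3). Atp5g2 stood at 70.9, 90.4 and 65.8 against 98.2 and 128 (0.58, adjusted p = 0.129), and Atp5g1 at 48.7, 62.3 and 53.5 against 68.6 and 92.2 (0.54, adjusted p = 0.141). Per kb of exon, Atp5g3 made up 40.3, 46.2 and 44.6% of the 3 genes in BA and 58.6 and 52.1% in AV mice, which did not overlap. The lengths used count all annotated exons of a gene, 4.91 kb for Atp5g1, 1.68 kb for Atp5g2 and 2.18 kb for Atp5g3. They may differ from the transcripts made in these cells, so the shares depend on the annotation. That the genes differed in their change was not tested. In the BA vs AP table the share of Atp5g3 was 33.4 to 45.9% in BA and 36.5, 42.2 and 49.9% in AP mice, with overlap, and there Atp5g1 had the lowest p of all members.

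**Figure D4:**
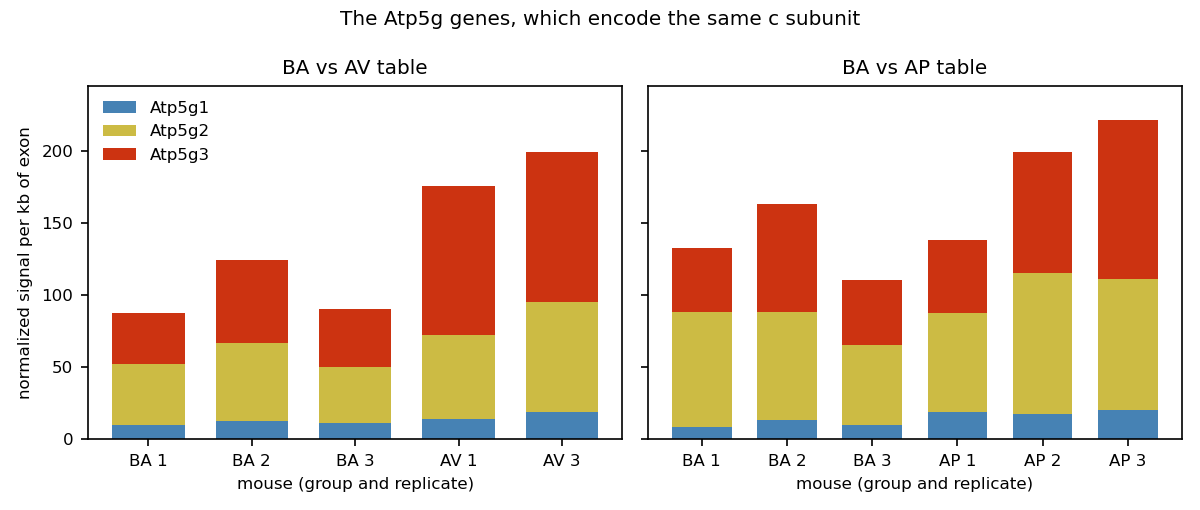
Normalized signal per kb of exon of Atp5g1, Atp5g2 and Atp5g3, stacked, in each mouse of both tables, with all annotated exons of a gene counted. The stacks of the AV mice are 175 and 199 high against 87.5 to 124 in BA mice, and most of the added height is Atp5g3.

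Among the assembly factors 1 of 10 rose, beside 13.6% of all genes called higher. A log2 fold change above 0 was found in 7, beside 48.5% of all genes. A difference between the assembly factors and the subunits was not tested. Of the 10 with a row, 9 serve complex IV, and the tenth, Atp5s, is related to ATP synthase. Cox17, a copper chaperone, was called, with 68.0, 79.4 and 88.5 in BA and 185 and 168 in AV mice (1.16, SE 0.23, adjusted p = 0.0113). Cox14 went the other way, with 214, 143 and 139 in BA and 112 and 103 in AV mice, without overlap and not called (-0.59, SE 0.27, adjusted p = 0.141). Cox11 and Cox19, which also serve the copper site, were higher in both AV mice than in any BA mouse and were not called (0.43, adjusted p = 0.178, and 0.50, adjusted p = 0.157).

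The AV mice lay apart in these genes: 8 of the 10 were above and 1 below all BA mice in AV replicate 1, and 4 were above and 5 below them in AV replicate 3. Of all 9872 genes, 3974 were above and 3956 below all BA mice in AV replicate 1, and 3539 were above and 4210 below them in AV replicate 3. The counts in AV replicate 3 thus lie near the shares of all genes. The median difference of the assembly factors from the BA mean was 0.60 in AV replicate 1 and -0.29 in AV replicate 3, and that of the subunits 1.04 and 1.07. Cox10, which makes the haem precursor of the oxidase, was at 36.4, 37.8 and 27.9 in BA mice, and the AV mice were at 156 and 44.7 (1.29, SE 0.50, adjusted p = 0.0933). Cox18 was at 26.3, 32.3 and 23.6 in BA mice, and the AV mice lay on either side at 113 and 15.8 (0.64, SE 0.72, adjusted p = 0.533). Without AV replicate 1 its log2 fold change was -0.75, and without AV replicate 3 it was 2.02. Cox10 and Cox18 were both called without AV replicate 3 (limma adjusted p = 0.000556 and 0.000817), a fit in which AV replicate 1 is taken to vary like the BA mice.

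The remaining factors had overlapping groups and were not called. Cox15, which makes haem A, was at 71.7, 95.6 and 67.9 against 105 and 59.0 (0.02, adjusted p = 0.966), and turned to -0.06 when each mouse was centred on its median. Cox16 was at 86.3, 92.3 and 104 against 100 and 39.2 (-0.57, adjusted p = 0.306), with 56.8% of its exon bases inside another annotated gene on the same strand. Cox20 was at 58.0, 38.0 and 48.8 against 76.1 and 41.5 (0.24, adjusted p = 0.618), and 91.1% of its exon bases lie opposite Hnrnpu, in libraries made with a stranded kit. Atp5s was at 54.0, 57.9 and 55.3 against 71.7 and 29.2 (-0.27, adjusted p = 0.610). Each of Cox15, Cox16, Cox18, Cox20 and Atp5s changed sign when 1 AV mouse was left out, and without AV replicate 1 both Cox16 (-1.24, limma adjusted p = 0.00965) and Atp5s (-0.91, limma adjusted p = 0.0334) were called lower.

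Other genes of assembly and electron transfer, from a list of 36 with 27 in the table, had a median log2 fold change of 0.29. Of these 5 were called, 4 higher and 1 lower, beside 29.7% of all genes called, 13.6% higher and 16.2% lower. The ones that rose were Atpif1, the inhibitor of ATP synthase, by 2.41, Ndufa4, now counted as a subunit of complex IV, by 1.61, Usmg5, a small subunit of ATP synthase, by 1.56, and Coa5, an assembly factor of complex IV, by 1.53, and the one that fell was Coa4, by 0.94. Atpif1 was at 42.7, 34.1 and 35.9 in BA and at 202 and 203 in AV mice. Cycs, the soluble carrier between complexes III and IV, was not called (0.88, adjusted p = 0.0584). Of 11 nuclear regulators, 8 had a row, with a median of -0.05, and the 1 called was Tfb2m, a mitochondrial transcription factor, which was lower in AV mice (-1.26, adjusted p = 0.0353), at 18.3 and 38.8 against 56.1 to 78.8 in BA mice. Ppargc1a, a coactivator of mitochondrial genes, was not called (0.90, adjusted p = 0.172), nor were Gabpa and Tfam (0.03 and 0.09).

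Set beside other families of the same table, the members were not alone in being higher. Complex I genes, taken by symbol and so with Ndufa4 counted again, had a median of 0.71 with 14 of 34 called, all higher. Cytosolic ribosomal protein genes had 1.47 with 67 of 78 called, all higher. Mitochondrial ribosomal protein genes had 0.29 with 3 of 66 called, 2 of them higher. Short genes as a class leaned the same way. When all genes were split into 4 equal bins by exon length, the shortest bin, 0.168 to 3.198 kb, had a median log2 fold change of 0.16 with 16.3% called higher, and it held 32 of the 45 members, 20 of them called, with a median of 1.21. The 11 members in the next bin had a median of 0.62, beside -0.01 for all genes there. The part of length in the difference was not tested.

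**Figure D5:**
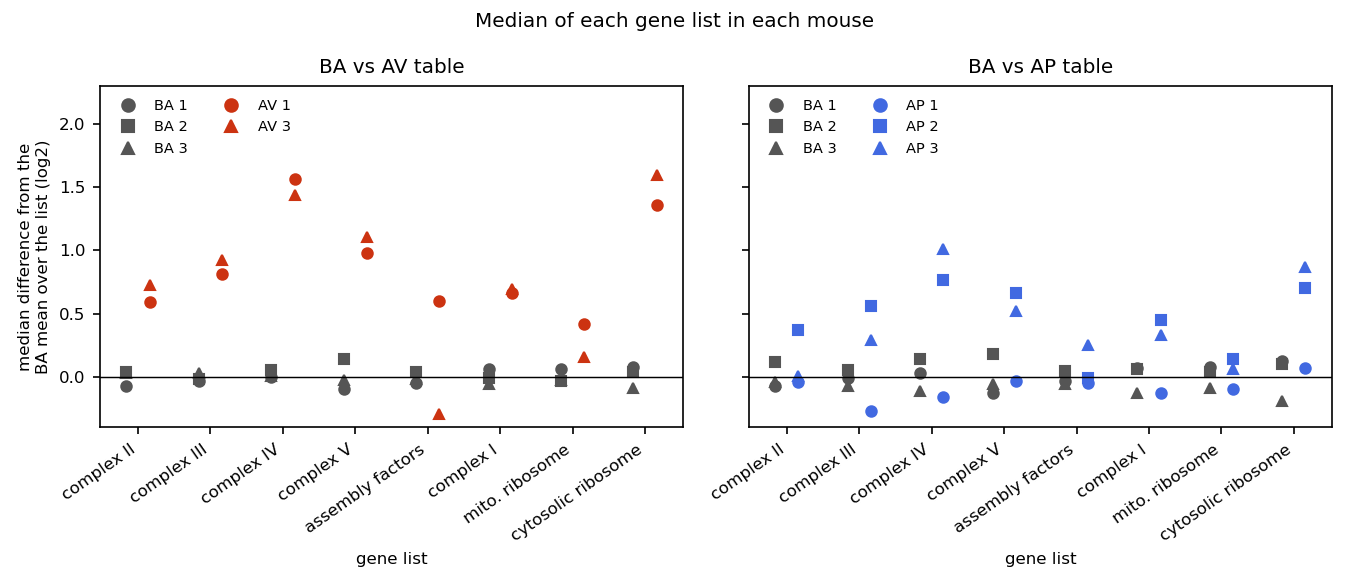
Median difference from the BA mean (log2) over the genes of each list, for each mouse of both tables. The lists named complex II to V hold subunits. Both AV mice lie above all BA mice in every list but the assembly factors. AP replicate 1 lies among or below the BA mice in every list. AP replicates 2 and 3 both lie above them in complexes I, III, IV and V and in the cytosolic ribosome.

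Between BA and AP mice no member was called by limma, as was almost no gene of that table (1 of 11820, 0.00846%). An unadjusted p under 0.05 was reached by 4 of the 50 members, all higher in AP mice, beside 7.77% of all genes, 4.99% higher and 2.77% lower. The groups did not overlap in 4 members, all higher, beside 12.1% of all genes, 5.64% higher and 6.45% lower. These shares lie near those of the table as a whole. Low values here lie mostly on steps of 1 read, whereas in the table with AV mice at most 24.0% do, so the tables may have been processed differently, and their counts of calls cannot be set against each other. The sign leaned towards higher values, with 41 members above 0 and a median log2 fold change of 0.28, beside 46.5% of all genes above 0 and a median of -0.03. Complex IV subunits had a median of 0.60, complex V 0.43, complex III 0.16, complex II 0.14 and assembly factors 0.02. The BA mice are the same as in the comparison with AV mice, so the comparisons are not independent of each other.

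The AP mice were not alike. Taken over the members, the difference from the BA mean had a median of -0.07 in AP replicate 1, 0.55 in replicate 2 and 0.45 in replicate 3. Other families went the same way, with -0.13, 0.45 and 0.33 for complex I and 0.071, 0.70 and 0.87 for cytosolic ribosomal protein genes. For mitochondrial ribosomal protein genes the medians were -0.094, 0.14 and 0.062. mt-Co3 was at 9542, 16735 and 19245 in BA mice, and AP replicate 1 lay among them at 11486, while replicates 2 and 3 were at 55881 and 58315 (1.20, SE 0.61, adjusted p = 0.689). Cox6a1 was at 282, 258 and 186 in BA and at 182, 530 and 586 in AP mice (0.68, SE 0.44, adjusted p = 0.717). Without AP replicate 1 the median over the members was 0.47, without replicate 2 it was 0.16, and no member was called in either case.

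The 4 members with the lowest p were subunits of complexes IV and V. Atp5g1 was at 40.9, 66.5 and 49.2 in BA and at 91.5, 86.9 and 99.2 in AP mice (0.84, SE 0.24, limma adjusted p = 0.422). All 3 AP mice, replicate 1 included, lay above the BA mice. The mitochondrial gene mt-Co2 (mitochondrial chromosome, 7013 to 7696), which encodes the subunit that receives electrons from cytochrome c, was at 2152, 3554 and 4066 in BA and at 4580, 8457 and 12268 in AP mice (1.31, SE 0.40, limma adjusted p = 0.442). Cox7b was at 76.6, 86.0 and 71.9 against 88.4, 132 and 243 (0.85, SE 0.36, limma adjusted p = 0.626). Atp5k overlapped, with 61.7, 50.2 and 42.5 in BA and 54.3, 108 and 138 in AP mice (0.86, SE 0.35, limma adjusted p = 0.616). The fourth gene without overlap was Cox6c, at 311 to 326 in BA and at 329, 536 and 645 in AP mice.

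No complex II gene was called in AP mice. Sdha was at 661, 696 and 666 in BA and at 590, 822 and 694 in AP mice (0.05), Sdhb at 157, 141 and 179 against 151, 197 and 180 (0.15), Sdhc at 132, 163 and 137 against 146, 193 and 139 (0.14), and Sdhd at 51.0, 89.1 and 51.0 against 61.1, 89.1 and 60.4 (0.16). Within this spread a difference was not detectable. In complex III, Cyc1 was at 75.5, 91.2 and 76.8 against 69.1, 120 and 99.3 (0.21) and Uqcrfs1 at 199, 214 and 205 against 142, 267 and 161 (-0.17). Uqcrc2 had the lowest log2 fold change of all subunits (-0.46, limma adjusted p = 0.706). Of the catalytic genes of complex V, Atp5b was at 1021, 1110 and 784 against 851, 1561 and 927 (0.16) and Atp5a1 at 679, 894 and 674 against 691, 1175 and 947 (0.30).

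Between BA and AP mice the groups overlapped in the isoform genes of complex IV. Cox4i1 was at 421, 398 and 268 in BA and at 292, 604 and 632 in AP mice (0.44), Cox6b1 at 71.3, 73.7 and 64.5 against 66.8, 122 and 179 (0.69), Cox7a2 at 145, 128 and 76.8 against 96.4, 180 and 108 (0.13) and Cox7a2l at 111, 179 and 93.9 against 109, 215 and 193 (0.42). AP replicate 1 was among or below the BA mice in all 4. Among the c subunit genes, Atp5g2 was at 134, 125 and 92.7 against 116, 164 and 152 (0.29) and Atp5g3 at 96.8, 163 and 97.6 against 110, 183 and 241 (0.55).

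The assembly factors showed no common direction in AP mice, with 5 above and 5 below 0. The highest was Cox18, at 26.5, 42.0 and 30.2 in BA and at 56.6, 36.0 and 77.7 in AP mice (0.73, limma adjusted p = 0.653). The lowest was Cox15, at 83.0, 117 and 80.5 against 79.3, 82.8 and 44.2 (-0.47, limma adjusted p = 0.718). Atp5s, Cox16, Cox14 and Cox20 had differences of -0.40, -0.35, -0.036 and -0.0011, and Cox17, Cox11, Cox10 and Cox19 of 0.044, 0.15, 0.28 and 0.29. Outside the set, Atpif1 was at 47.8, 45.0 and 38.8 in BA and at 66.8, 108 and 162 in AP mice (1.25, SE 0.33, limma adjusted p = 0.392). None of the 34 listed genes of assembly and electron transfer or of the 10 listed regulators was called. An unadjusted p under 0.05 was reached by 3 of the 34 and 1 of the 10, beside 7.77% of all genes. All 8 microglial markers lay higher in all 3 AP mice than in any BA mouse, AP replicate 1 included, beside 5.64% of all genes. Of the 39 subunits in AP replicate 1, 9 lay below all BA mice and 4 above them. Of all 11820 genes there, 2549 lay below and 2410 above all BA mice.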

How the data were processed

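The authors deposited a normalized signal per gene and mouse in a table of 3 BA and 2 AV mice and a table of 3 BA and 3 AP mice. According to their methods, libraries were scaled by TMM, genes with low counts were dropped, and ARSyN was applied, which removes unwanted variation and can narrow the spread within groups, so that p-values may be too small; its effect was not tested. The submitters' processing notes list Salmon 1.2, bcl2fastq 2.20 and GRCm38.p6. Values of a mouse sum to 3267970 to 3974270 (BA vs AV) and 4589300 to 5072770 (BA vs AP). For BA vs AP, 79.4 to 89.7% of low values lie on steps of 1 read (within 0.02 reads), worth 3812180 to 6719780 reads per mouse. For BA vs AV at most 24.0% lie on any such step, so whether ARSyN was applied to both tables alike is unknown, and so is the depth behind the BA vs AV values.

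Symbols, coordinates and exon lengths came from GENCODE M21, which named 9871 of 9872 and 11778 of 11820 genes. Each comparison was fitted with limma 3.58.1 (R 4.3.3) over all listed genes, on log2 of the value plus a pseudocount of 1, two-sided and with no covariates, and the script was tested on simulated data. The study's own test, NOISeqBIO, was not run. Members and lists were chosen with earlier results of these data known. The oligodendrocyte list and its sums leave out 1 gene, which is not reported here. Named are core subunits, isoform genes, the member of each complex with the largest called change, members with an unadjusted p under 0.05 in AP mice and all assembly factors; all other names were chosen with their values known. Settings tried instead were pseudocounts of 0.5 and 10, genes with a mean of at least 20, median centring, a variance prior that follows the mean, an adjusted p under 0.01, each mouse left out and the replicate number as a block. Python 3.11.15, numpy 2.4.6, pandas 2.3.3 and matplotlib 3.10.9 were used.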

Additional observations from a re-analysis of the deposited data

How the results depend on the processing

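Between BA and AV mice the count of called members was 25. It was 24 to 27 with other pseudocounts, the filter on low values, median centring or the variance prior that follows the mean, 11 at an adjusted p under 0.01, and 15 to 26 with each mouse left out, the lowest values coming without BA replicate 1 (15) and BA replicate 3 (16). With the replicate number as a block it was 8, and over all genes the count fell from 2934 to 970. The deviations of AV and BA mice with the same number had correlations of -0.060 and -0.039. With 2 AV mice the deviations mirror each other, so these values cannot show whether the numbers pair the mice. For AP mice the correlations were 0.020, 0.121 and 0.081 with the same number and -0.117 to 0.014 with different numbers. Whether the numbers pair the mice is unknown. Without 1 AV mouse the other is taken to vary like the BA mice. Between BA and AP mice no member was called under any alternative.

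The medians that moved by more than the spread within groups included the following, and those that changed sign were the assembly factors in both comparisons and complex II in BA vs AP. For the BA vs AV comparison, median centring gave 0.90 over the members and 1.02 over nuclear subunits. It also gave 0.55, 0.79 and 1.45 for complexes II, III and IV and 0.25 for assembly factors. A pseudocount of 10 gave 1.48 for complex IV and 0.28 for assembly factors. The replicate block gave 0.91 for complex III and 1.58 for complex IV. With each mouse left out the ranges were 0.92 to 1.05 over the members, 0.98 to 1.14 over nuclear subunits, 0.59 to 0.73, 0.81 to 0.92 and 1.44 to 1.58 for complexes II, III and IV, and -0.29 to 0.60 for assembly factors, which turned without AV replicate 1. For the BA vs AP comparison these ranges were 0.16 to 0.47 over the members, 0.15 to 0.51 over nuclear subunits, 0.89 to 1.83 over mitochondrial genes, -0.011 to 0.22, 0.019 to 0.28, 0.38 to 0.90 and 0.22 to 0.54 for complexes II to V and -0.0056 to 0.12 for assembly factors, whose median was -0.0048 with median centring.

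Single genes changed sign as follows with mice left out. In BA vs AV the ranges were -0.91 to 0.36 for Atp5s, -0.39 to 0.43 for Cox15, -1.24 to 0.096 for Cox16, -0.75 to 2.02 for Cox18 and -0.19 to 0.67 for Cox20, and Cox15 was at -0.057 with median centring. In BA vs AP they were -0.11 to 0.32 for Atp5b, -0.15 to 0.31 for Cox11, -0.28 to 0.19 for Cox14, -0.59 to 0.043 for Cox16, -0.10 to 0.14 for Cox17, -0.22 to 0.19 for Cox20, -0.14 to 0.31 for Cox7a2, -0.075 to 0.16 for Sdha, -0.0049 to 0.23 for Sdhc, -0.017 to 0.43 for Sdhd and -0.45 to 0.0080 for Uqcrfs1, and Cox20 was at 0.0026 with a pseudocount of 10.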
